A study of Mus musculus with 25 samples.

Results

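Nicotinic acetylcholine receptors are cation channels of the nervous system that open when they bind acetylcholine or nicotine, and each channel is built from several subunits. The genes described are Chrna3, Chrna6, Chrna7, Chrnb2, Chrnb3 and Chrnb4, which encode the alpha3, alpha6, alpha7, beta2, beta3 and beta4 subunits. They were the rows of the table whose Ensembl identifiers carry these symbols, and all 6 were listed among 16220 genes. RNA was sequenced from dorsal root ganglia, which hold the cell bodies of sensory neurons. It came from mice of 25 BXD strains, with 1 library a strain, all 8 weeks old. BXD strains descend from a cross of C57BL6/J with DBA2/J and were inbred, so each carries the allele of either parent at nearly every locus. The ending of the strain name gave 9 RwwJ strains and 16 TyJ strains. Neither the animals' sex nor how many were pooled for a library is given here. The spread between strains therefore holds genotype, animal, dissection and library together, and p-values measure differences against that spread.

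In this family the alpha subunits carry the main part of the acetylcholine site, and beta2 and beta4 complete it. Receptors of alpha3 with beta4 are typical of autonomic ganglia. The beta3 subunit is an accessory one that is often found with alpha6, and alpha7 can form a channel by itself. In mouse sensory neurons, receptors with alpha6 have been studied for their interaction with the ATP-gated channels of nociceptors.

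Values are scaled counts, read counts that the authors scaled to a common upper quartile and rounded. An estimated 21800000 to 31700000 reads stood behind a library in RwwJ strains and 20000000 to 40100000 in TyJ strains. The share of the variance between strains that counting error gives ran from 0.0789% for Chrna6 to 4.97% for Chrnb4. All 8 pan-neuronal markers were listed in every strain, with Tubb3, a neuronal tubulin, at 70436 to 109907. The mean log2(scaled count + 1) of 6 spinal cord markers ran from 1.26 to 9.52 and was highest in BXD48, and that of 5 skeletal muscle markers ran from 5.26 to 12.3 and was highest in BXD60. The library kit does not mark the strand. The exons of Chrnb2 share 1365 of 8380 bases with Adar, an RNA-editing gene on the opposite strand, so reads from those bases cannot be told apart. The exons of the other 5 genes share no base with another gene of GENCODE M21. Overlap with the 523 listed identifiers that have no entry there could not be checked.

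Chrna6 was the most abundant of the 6 per exon length and lay at 2 separate levels. Its scaled counts ran from 1674 through a median of 3254 to 7944 in the 9 RwwJ strains, and from 1579 through 3259 to 8726 in the 16 TyJ strains. The 15 lower strains had 1579 to 3538, from BXD15 to BXD14, and the 10 higher strains had 6062 to 8726, from BXD11 to BXD16. No strain lay between 3538 and 6062, a gap of 0.78 on the log2 scale. A gap of that size, with at least 5 strains on each side, was found in 242 of 16152 genes tested (1.5%). Both groups were present on both sides, with 4 RwwJ and 6 TyJ strains in the higher set and 5 RwwJ and 10 TyJ strains in the lower set. The rule for 2 levels, a gap of at least 0.5 on the log2 scale, was set after the values were seen.

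Chrnb3, which neighbours Chrna6 on chromosome 8 and lies on the other strand, had the widest spread of the 6. It ran from 182 through a median of 478 to 1415 in RwwJ strains, and from 198 through 353.5 to 2143 in TyJ strains. The highest strain, BXD16, was 11.8-fold above the lowest, BXD48, and BXD16 was also the highest for Chrna6. Of all genes tested, 96.4% had a smaller SD over strains. In the 10 strains of high Chrna6, Chrnb3 had 317 to 2143, and in the other 15 it had 182 to 559. BXD11 stood apart from the other 9 strains of high Chrna6, since its Chrnb3 of 317 was inside the range of the 15.

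Chrna7 varied 3.47-fold, from 321 in BXD15 to 1114 in BXD16. It ran from 333 through 786 to 1059 in RwwJ strains and from 321 through 756 to 1114 in TyJ strains. In all, 10 strains lay at 321 to 498 and 15 at 599 to 1114. The gap of 0.27 on the log2 scale was smaller than that of Chrna6 and under the rule of 0.5. A gap of at least that size was found in 1537 of the genes tested (9.52%). Chrna3 varied 5.27-fold, with 181, 247 and 738 as its lowest, median and highest in RwwJ strains and 140, 295.5 and 639 in TyJ strains. Its 6 highest strains had 500 to 738 and its 19 others 140 to 359, a gap of 0.48 that lies just under the rule. Chrnb4 varied 4.19-fold, with 82, 185 and 314 in RwwJ strains and 75, 167 and 247 in TyJ strains. Chrnb2 varied least: it ran from 2330 through 3019 to 3466 in RwwJ strains and from 1874 through 2643.5 to 3637 in TyJ strains, 1.94-fold in all. Its SD of 0.23 on the log2 scale was close to the median of 0.25 over all genes. The shares of genes with a smaller SD were 94.7% for Chrna6, 91.4% for Chrna3, 88.9% for Chrna7, 85.0% for Chrnb4 and 47.3% for Chrnb2.

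**Figure D1:**
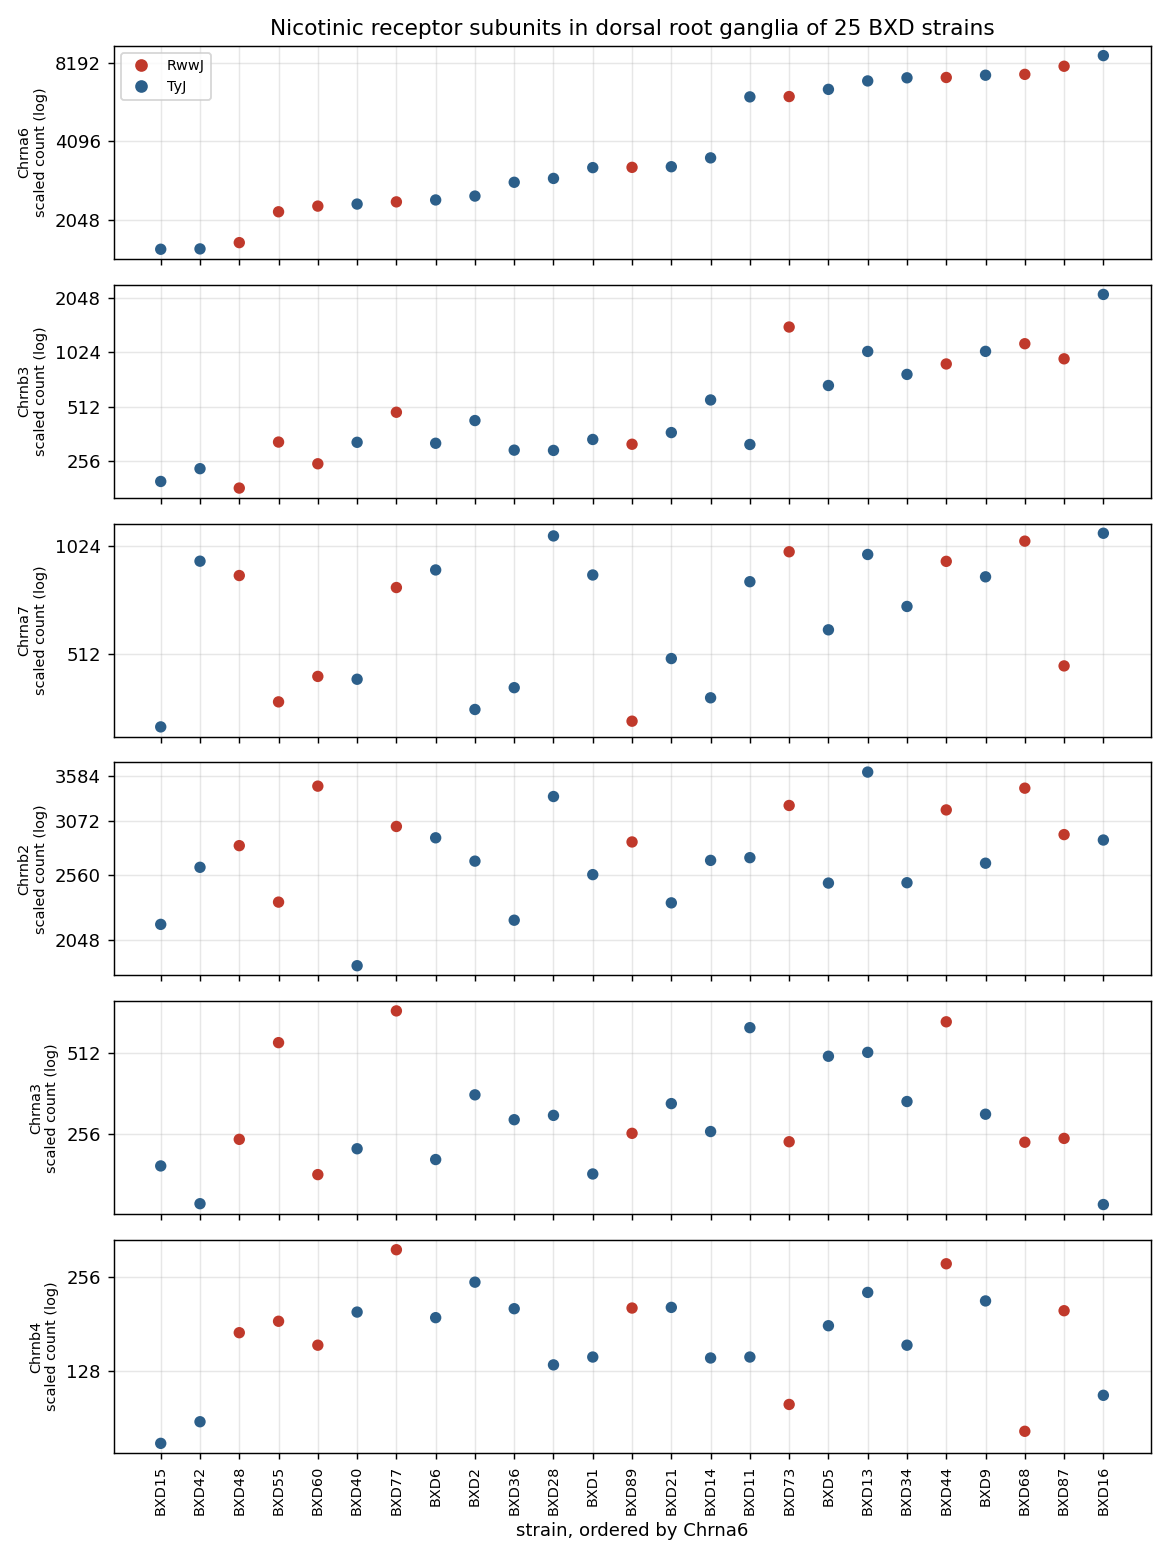
Scaled counts of the 6 subunit genes on log axes, 1 point a strain, with strains ordered by Chrna6 and colour for RwwJ and TyJ. Chrna6 is at most 3538 in 15 strains and at least 6062 in 10. Chrnb3 is at most 559 in the 15 and at least 672 in the 10, except in BXD11 (317). RwwJ and TyJ strains are mixed in every panel.

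Per kilobase of merged exon, the order was Chrna6, Chrnb2, Chrna7, Chrnb3, Chrna3 and Chrnb4. The scaled counts per kilobase averaged 1508 ± 826, 332 ± 52.9, 155 ± 60, 96.0 ± 73.7, 63.2 ± 32.5 and 46.7 ± 16.2 in that order (SD, n = 25). Chrna6 exceeded Chrnb2 in all 25 strains, by a mean of 1.98 on the log2 scale. Chrnb3 exceeded Chrna3 in 16 of 25 strains by 0.43 ± 1.12 (SD), which did not pass (permutation test with paired sign changes, adjusted p = 0.0623 over 5 neighbours). The other 4 neighbours in the order differed, with adjusted p from 2.5e-05 to 0.00284, and the order was the same with the longest transcript as the length. With that length, Chrnb3 over Chrna3 passed too, by 0.63 ± 1.12 in 18 of 25 strains (permutation adjusted p = 0.00677). In a strain, the level of Chrnb3 per kilobase was 2.39% (BXD11) to 11.2% (BXD16) of that of Chrna6, with a median of 5.72%.

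**Figure D2:**
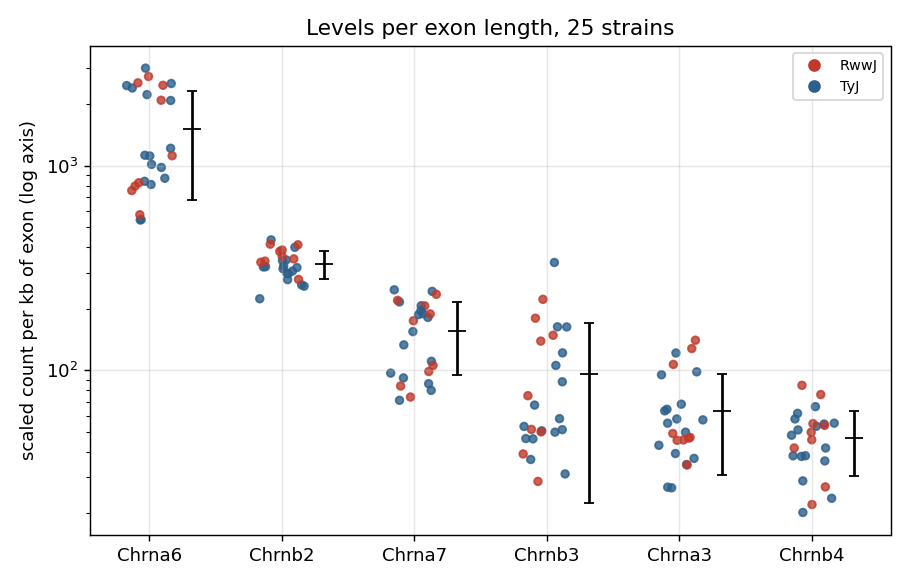
Scaled counts per kilobase of exon on a log axis, 1 point a strain with colour for RwwJ and TyJ, and mean ± SD as the bar beside each gene (n = 25). Chrna6 averages 1508 and Chrnb4 46.7, and the points of Chrnb3 and Chrna3 overlap.

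Chrnb3 and Chrna6 rose and fell together over the strains. In limma across 16151 genes with Chrna6 as predictor, Chrnb3 changed by 1.03 ± 0.11 (SE) on the log2 scale per doubling of Chrna6 (adjusted p = 9.54e-06). It was the 1 gene called, 0.00619% of those tested. In the reverse fit Chrna6 changed by 0.75 ± 0.08 per doubling of Chrnb3 (adjusted p = 8.92e-06) and was again the 1 gene called (0.00619%). The pair was called in all 25 fits that left out 1 strain. The number of genes called with Chrna6 rose to 2 without any of BXD5, BXD60 or BXD87, to 3 without BXD13, to 4 without BXD42 or BXD48, to 5 without BXD21, to 6 without BXD6 and to 7 without BXD9. With Chrnb3 it was 2 without BXD9 and 17 without BXD60. Because Chrna6 lies at 2 levels, r was taken within each level. It was 0.72 in the 15 lower strains (permutation p = 0.00292, adjusted p = 0.0398 over 15 pairs). In the 10 higher strains it was 0.62 and did not pass (permutation p = 0.0536, adjusted p = 0.238). With the level as a covariate the slope was 1.02 ± 0.30, but no gene passed over all genes (limma adjusted p = 1.0).

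Chrna3 and Chrnb4 are neighbours on chromosome 9, on the same strand. Over 25 strains their r was 0.62 (permutation p = 0.00104, adjusted p = 0.0078 over 15 pairs) and rho 0.62 (adjusted p = 0.00915). Without the 2 strains farthest from the median of Chrna3, BXD44 and BXD77, r was 0.49. It was 0.69 in RwwJ strains and 0.56 in TyJ strains, and passed in neither group over 15 pairs (permutation adjusted p = 0.347 and 0.121). It was 0.51 above the gap of Chrna3 and 0.58 below it. BXD77 was the highest strain for both genes and BXD44 was the next for both. Set against all 16151 genes, the pair did not pass (limma adjusted p = 0.97 with Chrna3 and 0.135 with Chrnb4 as predictor). Chrnb4 ranked 5 by p with Chrna3 as predictor, and Chrna3 ranked 48 with Chrnb4 as predictor. No gene was called with either predictor (0% each, 762 genes with Chrna3 and 1672 with Chrnb4 at an unadjusted p under 0.05). Without 1 strain the number called with Chrnb4 was 21 without BXD55, 16 without BXD68, 5 without BXD87, 4 without BXD13, 3 without BXD15 and 1 without BXD89.

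Promoter windows were matched in RefSeq (build GRCm38.p6) for 4 of the 6 genes, Chrna3, Chrna7, Chrnb2 and Chrnb4, and not for Chrna6 and Chrnb3. Those of Chrna3 and Chrnb4 are shown since the pair moved together and shares a chromosome. Each window runs from 250 bases before to 50 bases after the start, 5′ to 3′ on the minus strand, at chr9:55026513-55026812 for Chrna3 and chr9:55048495-55048794 for Chrnb4. Capitals mark the GC box GGGCGG on either strand (CCGCCC is its other strand).
Chrna3: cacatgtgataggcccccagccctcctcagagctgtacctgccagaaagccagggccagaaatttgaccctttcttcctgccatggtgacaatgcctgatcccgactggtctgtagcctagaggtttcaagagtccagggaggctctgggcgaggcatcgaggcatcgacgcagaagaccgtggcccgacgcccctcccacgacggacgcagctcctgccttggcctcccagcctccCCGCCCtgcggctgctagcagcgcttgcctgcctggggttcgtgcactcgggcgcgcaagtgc
Chrnb4: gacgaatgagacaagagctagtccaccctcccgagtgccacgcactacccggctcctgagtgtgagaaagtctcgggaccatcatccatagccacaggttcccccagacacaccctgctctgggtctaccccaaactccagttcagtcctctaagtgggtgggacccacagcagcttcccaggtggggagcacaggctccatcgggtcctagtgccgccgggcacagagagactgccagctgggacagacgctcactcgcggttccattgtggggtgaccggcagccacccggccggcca
The Chrna3 window held 1 GC box and the Chrnb4 window none; 35.7% of the 32851 windows in the table held it.

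Chrna7 and Chrnb2, on chromosomes 7 and 3, had an r of 0.56 (permutation p = 0.0038, adjusted p = 0.019) and a rho of 0.57 (adjusted p = 0.0164). With the 2 strains farthest from the median of Chrna7, BXD15 and BXD89, left out, r was 0.56. In RwwJ strains r was 0.52, which did not pass (permutation adjusted p = 0.57), and in TyJ strains it was 0.69. Leaving out BXD15 alone ended the call (r 0.50, adjusted p = 0.0606), as did leaving out BXD21, BXD36 and BXD40 together (r 0.49, adjusted p = 0.112). Set against all 16151 genes, Chrna7 ranked 4171 by p with Chrnb2 as predictor. It was called (limma adjusted p = 0.00824), as were 6458 genes in that fit (40%). With Chrna7 as predictor, Chrnb2 ranked 234 by p and did not pass (limma adjusted p = 0.165). A long-gene index of each library, the mean log2 deviation of 4775 genes of at least 6000 exon bases minus that of 2330 genes under 2000, moved with the pair. With that index as a covariate, r was 0.28 (adjusted p = 0.523). Of the 15 pairs, these 3 passed with Pearson and with Spearman when all 25 strains were pooled. Without BXD42, 5 passed, adding Chrna7 with Chrna6 and with Chrnb3.

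**Figure D3:**
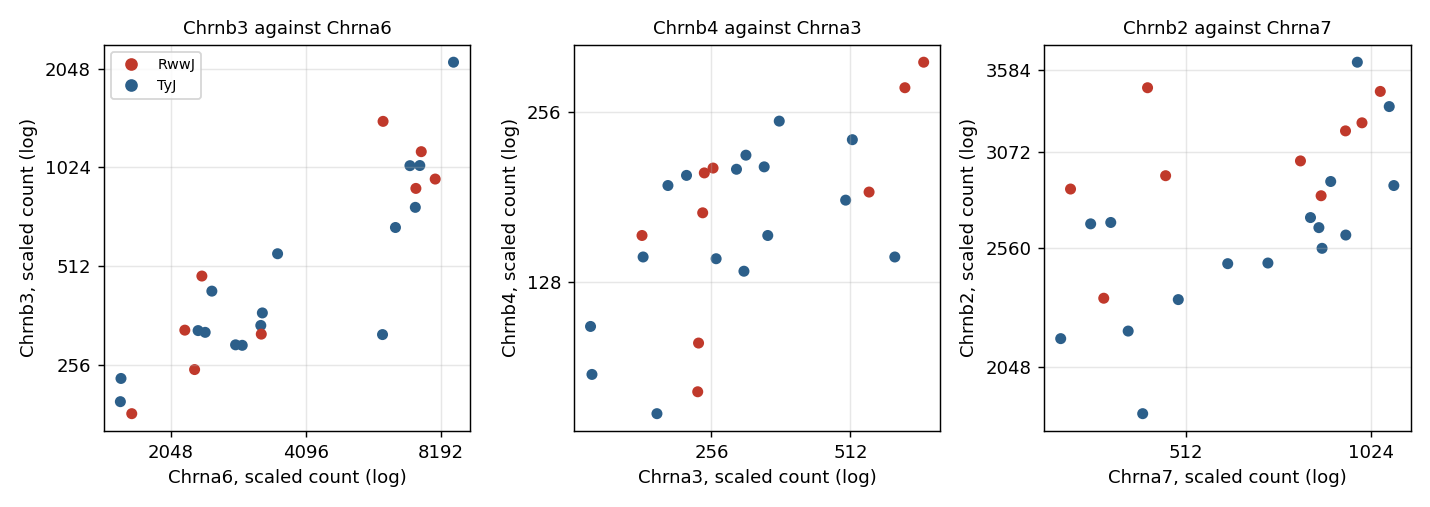
Scaled counts of the 3 pairs on log axes, 1 point a strain with colour for RwwJ and TyJ. Chrnb3 climbs with Chrna6, with BXD11 low at 317; Chrnb4 and Chrna3 (r 0.62) and Chrnb2 and Chrna7 (r 0.56) scatter more.

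Chrnb2 moved with the long-gene index, with an r of 0.85 (permutation p = 1e-05, the smallest these permutations can give, adjusted p = 6e-05 over 6 genes) and a rho of 0.80. Without the 2 farthest strains r was 0.77, and it was 0.62 in RwwJ strains and 0.86 in TyJ strains. The index ran from -0.45 in BXD40, the lowest strain for Chrnb2, to 0.34 in BXD68. All 6 subunits were left out of it, although Chrnb2 (8380 exon bases) and Chrnb3 (6369) have the length of its long genes. The r of other single long genes with the index is not given here, so this r may not be particular to Chrnb2. With Chrnb2 as predictor 6458 of 16151 genes were called (40%), 3115 rising (19.3%) and 3343 falling (20.7%). Across genes, which are not independent replicates, the co-variation with Chrnb2 had an r of 0.45 with log exon length. Of the long genes, 38.7% rose and 8.21% fell, while of the short genes 3.52% rose and 44% fell. Long and short genes make up the index. These shares and the r of 0.45 therefore follow in part from its r with Chrnb2 and are no separate result. With the index, itself built from tested genes, as a covariate, 166 genes were called. Chrna7 (r 0.50, rho 0.57) and Chrnb3 (r 0.49, rho 0.37) also passed with the index by Pearson (permutation adjusted p = 0.0261 each). By Spearman Chrna7 passed (adjusted p = 0.00993) and Chrnb3 did not (adjusted p = 0.10). The r of Chrnb3 with the index was 0.64 in the 10 strains of high Chrna6 and -0.17 in the 15 others. Chrna6 had an r of 0.43 with the index (permutation adjusted p = 0.0517) and a rho of 0.42 (adjusted p = 0.0804), and passed by neither. With the index as a covariate the pair of Chrna6 and Chrnb3 still passed (permutation adjusted p = 0.00015 over 15 pairs).

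**Figure D4:**
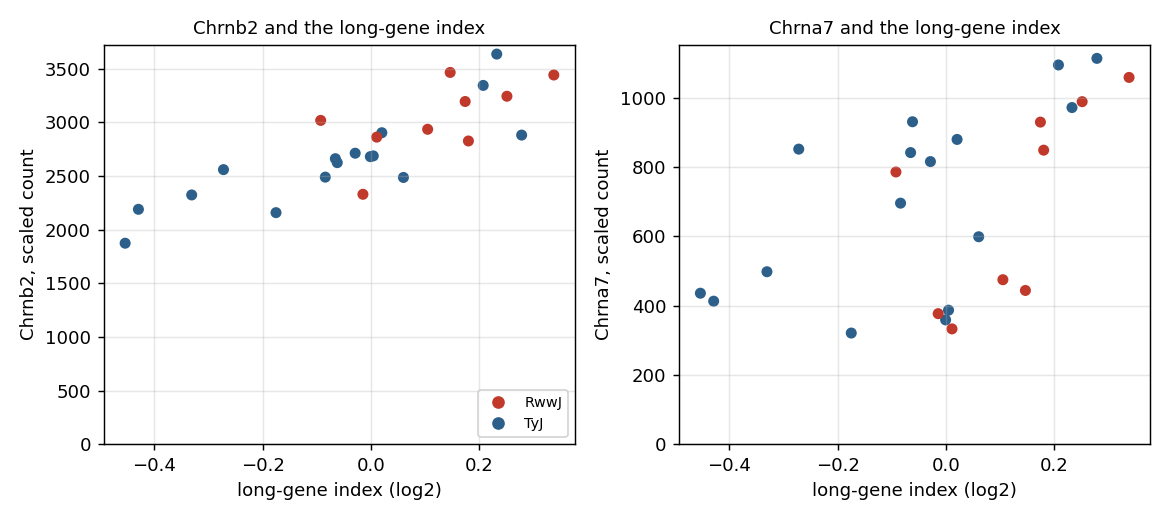
Scaled counts of Chrnb2 (left) and Chrna7 (right) against the long-gene index of each library, 1 point a strain with colour for RwwJ and TyJ. Chrnb2 climbs with the index (r 0.85) and Chrna7 does so less (r 0.50); BXD40 is lowest on both axes of the left panel.

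With Chrna7 as predictor, 2 of 16151 genes were called (0.0124%). Selenos, a selenoprotein of the endoplasmic reticulum on the same chromosome, fell by 0.26 ± 0.05 on the log2 scale per doubling of Chrna7 (limma adjusted p = 0.0365). An identifier with no annotation entry rose by 1.05 ± 0.11 (limma adjusted p = 8.69e-06), with scaled counts of 32 to 176. Its place on the genome is not known here, so whether it overlaps Chrna7 was not tested. Without any of BXD2, BXD13, BXD14, BXD15, BXD16, BXD28, BXD34, BXD42, BXD44, BXD48, BXD55, BXD68 or BXD73, 1 gene was called. Without any of BXD9, BXD60, BXD77 or BXD87, 3 were called. Which genes were lost or gained is not given here.

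Among genes that are not subunits and had the highest r with Chrnb2 were Sptan1 (0.94) and Prune2 (0.94), and Rpl7, a ribosomal protein, had the lowest at -0.92 (limma adjusted p = 4.72e-08 each). Among genes with a symbol, Rasa2 and Heatr6 were highest with Chrna7 (0.78 each) and Fam118b lowest (-0.78), and these 3 did not pass (limma adjusted p from 0.0554 to 0.163). With Chrnb4, Tom1 (0.79), Frzb (0.76) and Anxa5 (0.76) were highest and none passed (limma adjusted p from 0.0647 to 0.0754). With Chrna3, Lbhd2 was highest (0.67) and Zcwpw1 lowest (-0.75), and neither passed (limma adjusted p = 0.909 and 0.399). With Chrnb3, Lpcat2 on chromosome 8, a lipid-remodelling enzyme, was lowest (-0.71, limma adjusted p = 0.115). With Chrna6, Lpcat2 changed by -0.47 ± 0.09 and Fut10, also on chromosome 8, by -0.69 ± 0.13 on the log2 scale per doubling, and neither passed (limma adjusted p = 0.0574 each).

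For each subunit, the share of genes of its own chromosome was taken among those with an unadjusted limma p under 0.001. It was well above the share among all genes tested for Chrna6 and Chrnb3, and for Chrna3 in a list of only 14 genes, less so for Chrna7. For Chrnb4 and Chrnb2 it was near that share. This is a description, and the shares were not tested. The lists of Chrna6 and Chrnb3 are not independent, since the r of these genes was 0.88. The Chrna3 list is short and holds Chrnb4. With Chrna3 as predictor, 4.72% of all genes had an unadjusted limma p under 0.05, about the share that chance alone gives. For Chrna6 it was 22 of 72 (30.6%, against 5.28% of all genes tested), and for Chrnb3 21 of 84 (25%). For Chrna3 it was 4 of 14 (28.6%, against 5.49%) and for Chrna7 8 of 77 (10.4%, against 7.54%). For Chrnb4 it was 6 of 91 (6.59%, against 5.49%) and for Chrnb2 184 of 3478 (5.29%, against 4.88%). The neighbouring subunit itself had a limma p under 0.001 for Chrna6, Chrnb3, Chrna3 and Chrnb4. Among the 10 nearest tested protein-coding genes, 5 on each side, Chrnb3 alone was called with Chrna6. Rab11fip1 changed by 0.49 ± 0.13, Dusp26 by -0.35 ± 0.08 and Rnf122 by -0.23 ± 0.05 on the log2 scale per doubling of Chrna6, and these did not pass (limma adjusted p from 0.138 to 0.21). Of the neighbours of Chrnb2, Kcnn3, Adar and Atp8b2 rose with it and Hax1 fell (limma adjusted p from 2.57e-06 to 0.00345), which is 4 of 10 against 40% of all genes. Adar shares exon bases with Chrnb2, as given above.

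**Figure D5:**
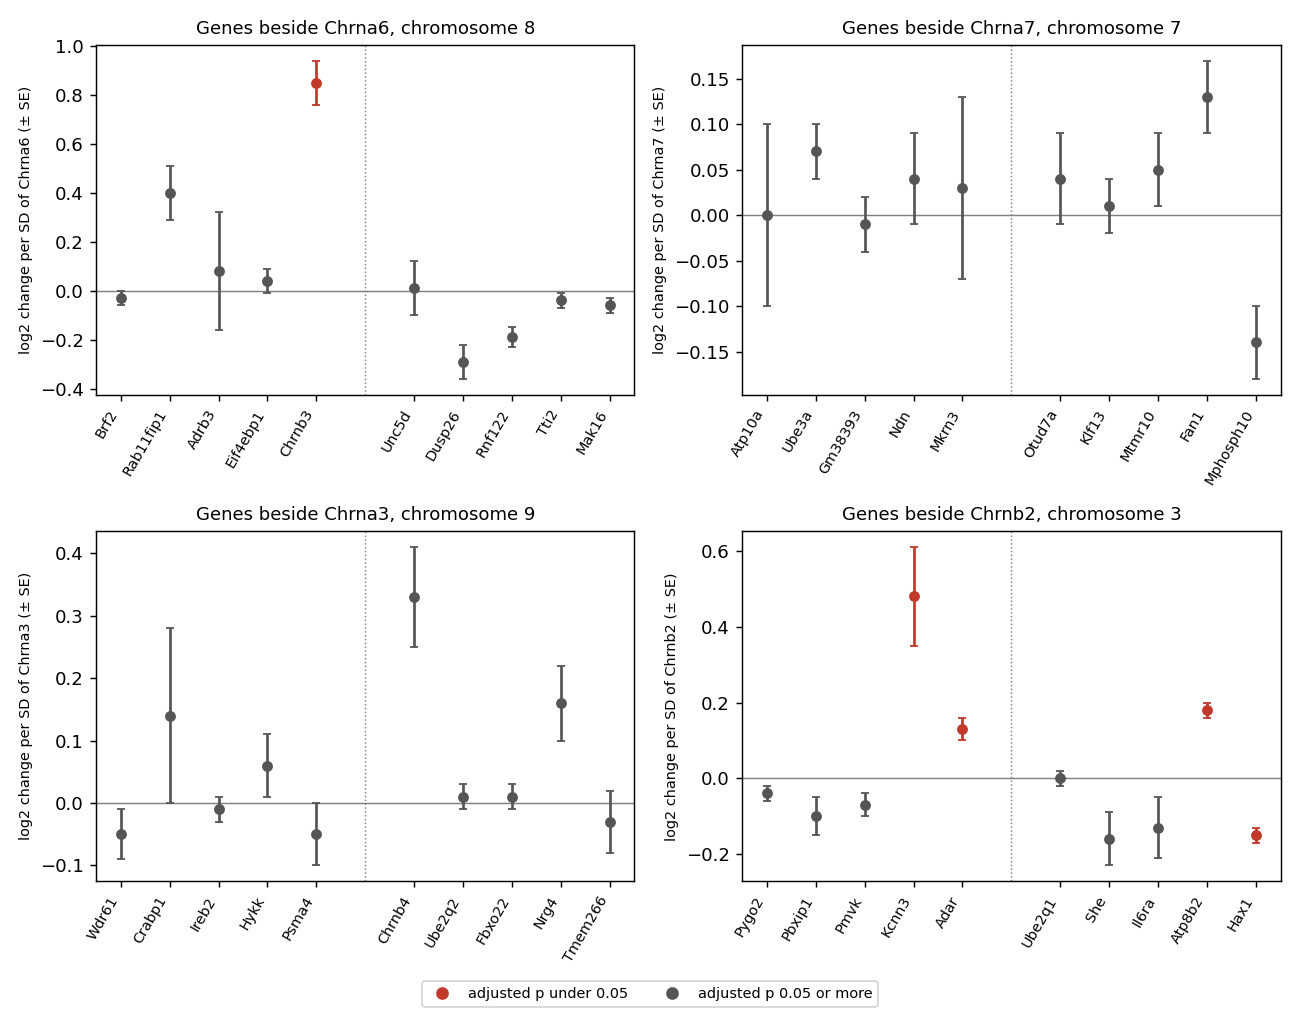
Change on the log2 scale, with SE, of the 5 nearest tested protein-coding genes on each side of Chrna6, Chrna7, Chrna3 and Chrnb2. Changes are per SD of that gene, in gene order (red: limma adjusted p under 0.05). Chrnb3 beside Chrna6 stands at 0.85 ± 0.09 and Chrnb4 beside Chrna3 at 0.33 ± 0.08, in grey.

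The subunits were set against the mean log2 level of the markers of each of 15 cell types and tissues. In bulk tissue, fewer cells of a type and less RNA per cell cannot be told apart. Of 90 pairs, 4 passed with Pearson and 3 with Spearman. Chrnb4 had an r of 0.61 (permutation, adjusted p = 0.034; rho 0.63, adjusted p = 0.0459) with the 3 markers of C-low-threshold mechanoreceptors, Th, Slc17a8 and Tafa4. Its r was 0.56 in RwwJ strains and 0.73 in TyJ strains, and 0.63 without the 2 farthest strains. Chrnb2 had r of 0.63, -0.61 and -0.63 with the markers of large-diameter neurons, peptidergic nociceptors and macrophages (permutation adjusted p = 0.0336 each). Without the 2 farthest strains these r were 0.56, -0.46 and -0.63. In the same order they were 0.54, -0.46 and -0.81 in RwwJ strains and 0.62, -0.53 and -0.58 in TyJ strains. With Spearman, the large-diameter and peptidergic results did not pass (adjusted p = 0.0886 and 0.092), and that of fibroblast markers with Chrnb2 did (rho -0.61, adjusted p = 0.048; Pearson r -0.50, adjusted p = 0.117). The part of the long-gene index in these was not tested. Of 5 sympathetic neuron markers only Slc6a2 was listed, at 6 to 126 with BXD36 highest, and r with Chrna3 and Chrnb4 was 0.09 and 0.07.

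Of 10 other nicotinic subunits 4 were listed. Chrna4 was at 7 to 315 and highest in BXD48, the strain with the most spinal cord marker RNA, whose part was not tested. The others were Chrna10 at 20 to 94, Chrna1 at 36 to 71 and Chrnb1 at 35 to 125. All 5 muscarinic receptors, 3 of 5 genes of acetylcholine handling, all 9 genes of receptor assembly or modulation and 4 of 4 other cation receptors were listed. With Chrnb2 as predictor the genes that rose were Chrnb1, the muscarinic receptors Chrm2 and Chrm3, the esterase Ache, the chaperone Ric3 and the modulator Lynx1, while Ly6e and Rapsn fell. Those are 6 up and 2 down of 25 listed genes, against 19.3% and 20.7% of all genes. Lynx1 rose by 1.29 ± 0.18 on the log2 scale per doubling of Chrnb2 (limma adjusted p = 7.24e-06). None of the 25 was called with Chrna3, Chrna6, Chrna7, Chrnb3 or Chrnb4. P2rx3, an ATP-gated channel of nociceptors, had 4679 to 8670 scaled counts, and P2rx2 had 66 to 195.

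RwwJ strains were set against TyJ strains over all genes, and no gene was called (0 of 16152, 0%; 2440 had an unadjusted limma p under 0.05, and array weights called 6). Without 1 strain, 3 genes were called without BXD48 and 1 without any of BXD34, BXD40, BXD55, BXD60 or BXD87. Chrnb2 averaged 3036 ± 354 in RwwJ strains and 2639 ± 432 in TyJ strains (SD, n = 9 and 16). Its difference of 0.21 ± 0.09 (SE) on the log2 scale did not pass (limma adjusted p = 0.303), although 8 of 9 RwwJ strains lay above the TyJ mean. An exact two-sided permutation test of Chrnb2 alone gave p = 0.0278. The long-gene index was 0.12 ± 0.14 in RwwJ and -0.07 ± 0.22 in TyJ strains, and with it as a covariate the difference of Chrnb2 was 0.04 (limma adjusted p = 0.999). Of the 25 listed pathway genes none was called. Rapsn, the clustering protein of muscle receptors, averaged 125 ± 21.4 in RwwJ strains and 171 ± 29.4 in TyJ strains, a difference of -0.45 ± 0.10 (limma p = 0.000209, adjusted p = 0.29). Chrna6 averaged 4494 ± 2599 in RwwJ strains and 4319 ± 2366 in TyJ strains, a difference of 0.03 ± 0.33. The 5 subunits other than Chrnb2 had limma adjusted p from 0.681 to 0.97.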

How the data were processed

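Per the labels' protocols, Trizol was used for extraction and the TruSeq RNA kit v2 for libraries. The submitters' processing notes name TopHat2 2.0.9, CASAVA 1.8.0, HTSeq and the builds mm9 and NCBIM37. The deposited table holds a normalized score, which the values show to be read counts that the authors scaled to a common upper quartile (1478.0 to 1478.25 in each of 25 libraries) and rounded. Depth was estimated from the steps between low values, and libraries totalled 24637919 to 26860283 scaled counts. Raw counts were not used here, so no count model was fitted.

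Values were tested as log2(scaled count + 1). Of the genes, 16152 had a mean of at least 10 and 68 were left out. This scale understates changes of low genes. Groups and co-variation were fitted with limma 3.58.1 in R 4.3.3 (trended prior, Benjamini-Hochberg over all genes at 0.05, two-sided), tested on simulated data. Pairs and scores used 100000 permutations, two-sided. A score of a marker list is its mean log2 value. Names, chromosomes, gene order and exon lengths came from GENCODE M21, which matched 15697 identifiers and not 523. It describes a later build, so none of its coordinates are given. Named genes are the 6 subunits, the listed pathway genes, the genes of highest (3) and lowest (2) r for each subunit, of which some are printed, and called neighbours. The members and lists were chosen with earlier results of these data known. Promoters were to be shown for the pair of highest r; the Chrna3 and Chrnb4 pair was taken instead after values were seen. Pseudocounts, scaling, filters, covariates and left-out strains were varied.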

Additional observations from a re-analysis of the deposited data

How the results depend on the processing

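The 3 pairs called kept their sign under the alternatives run. For genes called across the table and for marker scores only counts were recomputed, so their directions were not compared. The number of genes called for RwwJ against TyJ was 3 without BXD48 and 6 with array weights. With Chrna6 it was 2 with the pan-neuronal score as a covariate, 4 without BXD48, 2 without BXD21, BXD36 and BXD40, and 0 with the Chrna6 level as a covariate. With Chrna7 it was 1 with scaling to a common total, 4 with a mean of at least 50, 1 without BXD48 and 1 with the long-gene index as a covariate. That index gave 166 with Chrnb2 and 52 with Chrnb4. Within RwwJ strains 1 of the 15 pairs was called, and within the higher Chrna6 level 0, where fewer strains entered. Leaving out 1 strain each gave 0 to 3 genes for RwwJ against TyJ, 1 to 7 with Chrna6, 1 to 3 with Chrna7, 5371 to 6583 with Chrnb2, 1 to 17 with Chrnb3, 0 to 21 with Chrnb4, and 2 to 5 pairs. The cause was not tested. No paired analysis was possible because each strain has 1 library and no number links RwwJ to TyJ strains. The long-gene index, the Chrna6 levels, the strains BXD21, BXD36 and BXD40 and the counts of co-varying genes without 1 strain were chosen after seeing the data.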

Other observations

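Chrna3 and Chrnb3, on different chromosomes, had r of opposite sign within the 2 levels of Chrna6: -0.77 in the 10 higher strains (permutation p = 0.00687, adjusted p = 0.103 over 15 pairs) and 0.53 in the 15 lower strains (permutation p = 0.0399, adjusted p = 0.15). Neither passed the adjustment, and the difference between the 2 levels was not tested. The pooled r was 0.10. BXD16 was the highest strain for Chrna6, Chrnb3 and Chrna7 and the lowest for Chrna3.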
